A study of Homo sapiens with 17 samples.

Results

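The region tables of 22Rv1, a prostate cancer line, and HPr1AR, a non-malignant prostate epithelial line, were compared gene by gene and region by region. A gene was counted as listed in a line where a region of that line's table named it with an exon or intron mark. The tables held 77311 regions for 22Rv1 and 139373 for HPr1AR, of 326944 in the whole series, which also covers LNCaP. They listed 14297 genes in 22Rv1 and 15313 in HPr1AR, together 16373 of the 16876 genes of the series. Per the labels, all cells were wild type and vehicle treated. An antibody to N6-methyladenosine (m6A) was used for pull-down in 2 samples of 22Rv1 and 3 of HPr1AR, and with immunoglobulin G (IgG) in 3 samples of each. A 22Rv1 m6A sample numbered 2 was not analysed here, and whether it entered the 22Rv1 table is not known. 22Rv1 grew in RPMI medium with serum and HPr1AR in serum-free keratinocyte medium, so line and medium cannot be told apart. Each line stands for 1 cell line and not for a class of tumours or of normal tissue.

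m6A is a methyl mark on adenosines inside messenger and non-coding RNA. It is written by a complex built on METTL3 and METTL14, removed by FTO and ALKBH5, and read by YTH-domain and IGF2BP proteins that alter the stability, splicing and translation of the marked RNA. In the prostate gland, basal cells rest on the basement membrane and express TP63 and KRT5, while luminal cells depend on androgen and secrete proteins such as the prostate-specific antigen KLK3. 22Rv1 came from a xenograft that relapsed after castration. HPr1AR is an immortalised prostate epithelial line.

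Each table gives 1 value per region for the whole line. The spread of the samples is therefore unknown, and a difference between the lines has no replicate check. Whole reads were rebuilt from the deposited fold and p-value of each region's representative window. The headers do not name the pull-downs, and the upper term of the fold is taken after the table names to be m6A and the lower to be IgG. The rebuilt depths were 3.30 M m6A and 4.82 M IgG reads in 22Rv1, and 5.13 M and 11.7 M in HPr1AR. The log2 read ratio below is m6A over IgG reads, each divided by its depth. Its 95% exact binomial interval covers counting error only. Where no read was counted, 3 reads were used instead, which makes the ratio a lower bound when the IgG count is 0. Ratios are lower bounds also for regions with a deposited p of 0, for which only the fewest possible reads are known. Such a bound is not the lower limit of the 95% interval, which lies below it. A region is called higher where an exact binomial test of these reads, two-sided and adjusted by Benjamini-Hochberg within the table, passed 0.05. By that rule 56.3% of the 22Rv1 regions and 40.6% of the HPr1AR regions were higher and 0.936% and 0.122% were lower, although the authors' deposited tables give the direction of all 77311 and 139373 regions as up. Positions are printed as in the files. The submitters' processing notes name hg38, but only 12.8% of gene and region pairs of 22Rv1 and 13.4% of HPr1AR lay within their gene's GRCh38 span, so the build is not settled.

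Most genes were listed in both lines. Of the 16373 genes, 1060 (6.47%) were listed in 22Rv1 only, 2076 (12.7%) in HPr1AR only and 13237 (80.8%) in both. The 22Rv1 table rests on fewer reads, and these counts moved with the reads asked of a region. When only regions at or above a shared rate of 1.11 reads per M were kept in both tables, 2169 genes were found in 22Rv1 only and 1127 in HPr1AR only, which turns the order round. This rate is that of the most frequent count per window, 9 reads in each table, in 22Rv1. Genes above the rate in one line and not listed at all in the other numbered 961 for 22Rv1 and 1005 for HPr1AR. LNCaP, another prostate cancer line, listed 587 (55.4%) of the 22Rv1-only genes and 785 (37.8%) of the HPr1AR-only genes. Of the 13237 genes in both, LNCaP listed 12713 (96.0%). A gene whose transcript is too scarce cannot be listed, so lower transcript level and less m6A cannot be told apart for a gene missing from a table.

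Luminal secretory markers of 1 table only were mostly those of 22Rv1, and basal epithelial markers of 1 table only were those of HPr1AR. Of 28 basal markers, 0 were listed in 22Rv1 only, 19 in HPr1AR only and 9 in both. Of 26 luminal markers, 7 were listed in 22Rv1 only, 1 in HPr1AR only, 14 in both and 4 in neither. The counts of 19 and 7 were the same above the shared read rate. They stand beside shares over all genes of 6.47% and 12.7%. The tables thus carry the markers of the lines they are named for, while the sample descriptions pair lines and tables in another way.

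**Figure D1:**
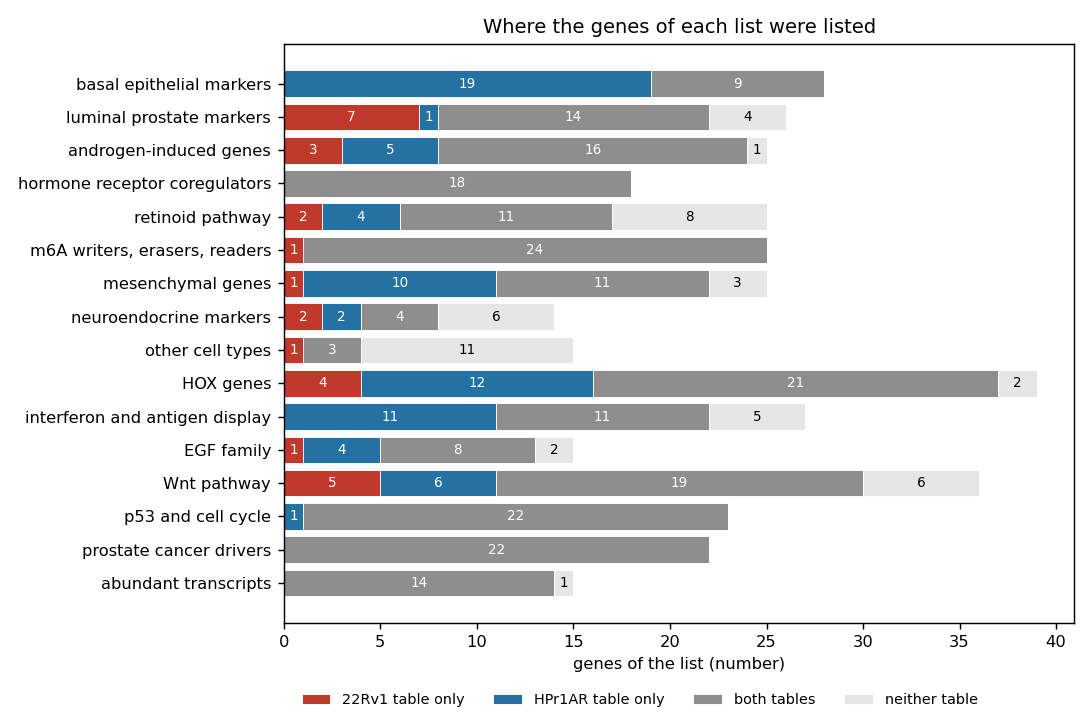
Number of genes of each list (horizontal axis) listed in the 22Rv1 table only, in the HPr1AR table only, in both or in neither. The basal row holds 19 HPr1AR-only genes and 0 22Rv1-only genes, and the rows of hormone receptor coregulators and prostate cancer drivers lie wholly in both tables.

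The luminal genes of 22Rv1 were KLK2, KLK3, KLK4, FOLH1, TMPRSS2, ACP3 and SPDEF, all of them also listed in LNCaP. KLK3, which encodes prostate-specific antigen, had 4 regions, and its leading one held 44 m6A and 3 IgG reads, a log2 read ratio of 4.42 (2.78 to 6.75). KLK2, a related secreted protease, held 83 m6A and 16 IgG reads (ratio 2.92, 2.14 to 3.79). FOLH1, the prostate-specific membrane antigen, was named by 30 regions, of which 6 were higher. TMPRSS2, an androgen-induced membrane protease, held 23 m6A reads against 1 IgG read (ratio 5.07, 2.45 to 10.44). The 7 genes span a wide range of ratios, and each had at least 1 higher region. KLK4 lay lowest, with 54 m6A and 50 IgG reads (ratio 0.66, 0.08 to 1.24). RAB3B, a vesicle transport GTPase often high in luminal tumours, was the exception of the list, with 0 regions in 22Rv1 and 11 in HPr1AR. MSMB, TRPM8 and PCA3 were among the 4 in neither.

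The 19 basal genes of HPr1AR included TP63, KRT5, KRT14, KRT15, KRT17, KRT6A, KRT6B, KRT16, LAMA3, ITGB4, COL17A1, DSG3, DSC3, PKP1, S100A2, TRIM29, BNC1 and JAG1. Only LAMA3 and JAG1 of the 19 were also listed in LNCaP. TP63, the transcription factor that defines basal cells, was named by 71 regions, 2 of them higher, and its leading region held 47 m6A and 35 IgG reads (ratio 1.62, 0.95 to 2.29). The leading KRT5 region held at least 102 m6A and 191 IgG reads (ratio at least 0.29), and the leading KRT17 region at least 79 and 177 (at least 0.03). Neither keratin had a region called higher, and KRT14 had none either. The leading regions of KRT5, KRT14 and KRT17 were tested on the fewest possible reads, so it is not known whether they were higher. The other 16 genes of the 19 had at least 1 higher region. KRT6B held 27 m6A and 7 IgG reads (ratio 3.14, 1.90 to 4.58), but it is nearly identical in sequence to KRT6A and KRT6C, so its reads may be shared. The median ratio of the leading regions was 1.32 over the 19 basal genes of HPr1AR and 2.92 over the 7 luminal genes of 22Rv1, and the basal ratios include lower bounds.

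Basal genes listed in both lines had fewer regions in 22Rv1 in 7 of 9 cases. Of all 13237 shared genes, 7558 had fewer regions in 22Rv1 and 2318 had more. ITGA6, the integrin that anchors basal cells to laminin, had 1 region in 22Rv1 and 45 in HPr1AR. Its 22Rv1 region held 44 m6A reads against 0 IgG reads (ratio at least 4.42), and its leading HPr1AR region at least 77 and 62 (ratio at least 1.503). EGFR, the epidermal growth factor receptor, had 15 regions in 22Rv1 and 65 in HPr1AR.

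**Figure D2:**
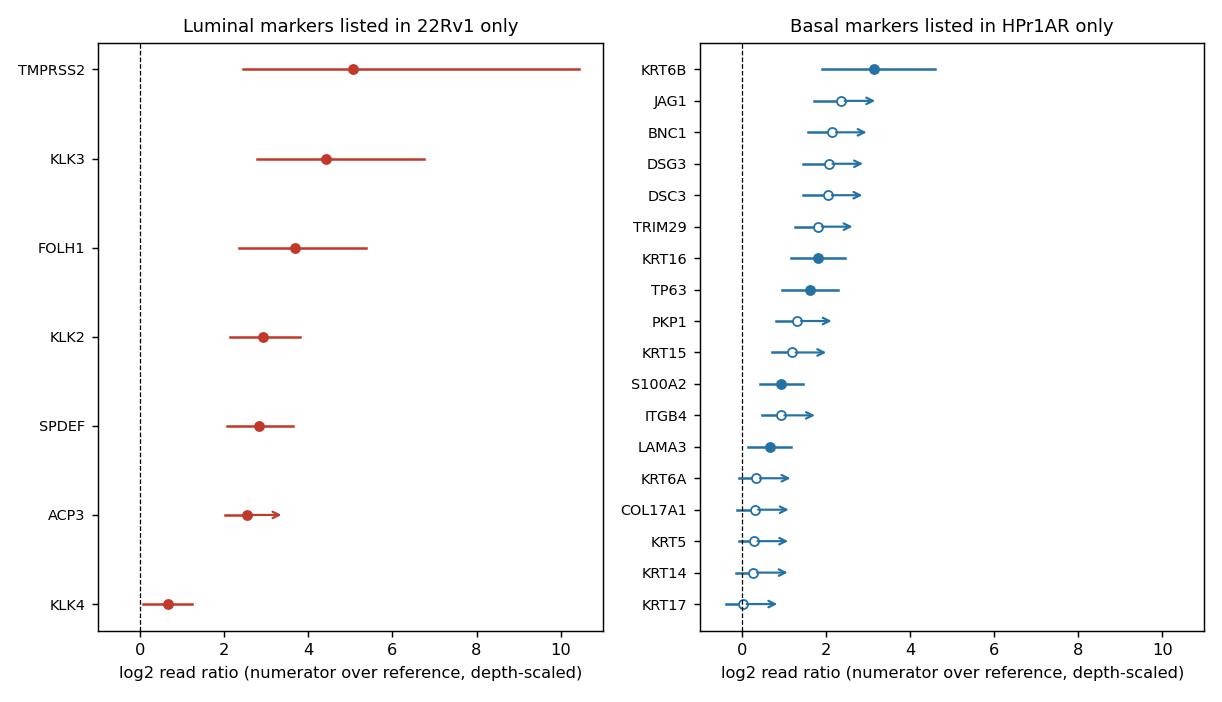
Log2 read ratio (horizontal axis, m6A over IgG reads scaled by depth) of the leading region of each luminal marker listed in 22Rv1 only and of 18 of the 19 basal markers listed in HPr1AR only. Bars are 95% exact intervals, arrows mark lower bounds and open circles mark regions with a deposited p of 0. KRT5, KRT14 and KRT17 are drawn at lower bounds next to 0, while KLK3 and TMPRSS2 lie above 4.

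Families to which these markers belong were read from gene symbols after the values had been seen, so their counts are a description. Of 24 keratins listed in either line, 0 were in 22Rv1 only and 20 in HPr1AR only, beside 6.47% and 12.7% of all genes. Above the shared read rate these keratin counts were 0 and 12, beside 2169 and 1127 over all genes. Kallikreins, serine proteases encoded side by side on chromosome 19, were divided without overlap, while 80.8% of all genes were in both tables. KLK1, KLK2, KLK3, KLK4 and KLK15 were in 22Rv1 only, and KLK5, KLK7, KLK8, KLK9 and KLK10, several of which are known from the epidermis, were in HPr1AR only. KLK7, which cleaves desmosomal proteins in skin, held at least 67 m6A and 16 IgG reads in HPr1AR (ratio at least 3.26). KLK15 held 24 and 2 in 22Rv1 (ratio 4.13, 2.12 to 7.26). KLK8 and KLK9 share their single HPr1AR region and cannot be told apart. The enzymes that attach glucuronic acid were divided as well. Of 13 such genes by symbol, 4 were in 22Rv1 only, 9 in HPr1AR only and 0 in both. The shares over all genes were 6.47%, 12.7% and 80.8%. UGT2B7, UGT2B11 and UGT2B15, of a subfamily that inactivates androgens, were in 22Rv1 only, with 14, 10 and 13 m6A reads in their leading regions. All 9 UGT1A genes, which share exons and therefore reads, were in HPr1AR only. UGT1A6 led these with 50 m6A reads against 1 IgG read (ratio 6.83, 4.29 to 12.17).

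Coregulators and pioneer factors of steroid hormone receptors were listed in both lines without exception. All 18 members were in both tables, beside 80.8% of all genes. They run from the coactivators NCOA1, NCOA2 and NCOA3 to the corepressor NCOR1 and the pioneer factors FOXA1, GATA2 and HOXB13. Each had a higher region in each line, and of all shared genes 90.9% had one in 22Rv1. FOXA1, which opens chromatin, held 74 m6A and 15 IgG reads in 22Rv1 (ratio 2.85, 2.04 to 3.76) and at least 64 and 17 in HPr1AR (at least 3.10). HOXB13, the homeobox factor of the prostate lineage, held 70 and 14 in 22Rv1 (2.87, 2.03 to 3.81) and 40 and 1 in HPr1AR (6.51, 3.95 to 11.85), and these intervals did not overlap. That pair of regions differs in extent, from position 46800651 to 46804820 in 22Rv1 and from 46803841 to 46804340 in HPr1AR. It also carried the names of other genes, PRAC2 among them, so the genes cannot be told apart there. Another HOXB13 pair held 70 and 36 in 22Rv1 (1.51, 0.91 to 2.13) and 7 and 0 in HPr1AR (at least 2.41). The HPr1AR interval of that pair began at 1.72, so the intervals overlapped.

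Of 25 androgen-induced genes, 3 were listed in 22Rv1 only, 5 in HPr1AR only, 16 in both and 1 in neither, beside 6.47% and 12.7% of all genes in the first and second class. KLK2, KLK3 and TMPRSS2 made up the 22Rv1 group. STEAP4, HERC3, ABCC4, MAF and EAF2 made up the HPr1AR group, and above the shared read rate the classes held 4 and 2. ZBTB16, a transcriptional repressor and known androgen target, had 51 regions in 22Rv1 and 1 in HPr1AR. NDRG1, a differentiation-linked target, had 1 in 22Rv1 and 49 in HPr1AR. FKBP5, a chaperone that is among the most androgen-sensitive transcripts, had 13 in 22Rv1 and 49 in HPr1AR. At or above the shared read rate, 22Rv1 and HPr1AR held 10 and 12 regions of FKBP5. These numbers were 1 and 8 for NDRG1 and 34 and 0 for ZBTB16.

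Retinoid genes bear on the series' title, which names the retinoic acid receptor gamma (RARG). RARG was listed in both lines, with 6 regions in 22Rv1 and 9 in HPr1AR, of which 2 and 3 were higher. Its 5 pairs of overlapping regions had intervals that overlapped in every case. At chr12:53624941-53626070 it held 29 m6A and 7 IgG reads in 22Rv1 (ratio 2.60, 1.38 to 4.03) and 26 and 11 in HPr1AR (2.43, 1.36 to 3.60). No difference in the RARG read ratio was detectable at this depth. RARA and the partner receptor RXRA were also in both tables. RARB, itself induced by retinoic acid, was in 22Rv1 only, with 20 m6A and 2 IgG reads (3.87, 1.83 to 7.01) in its leading region.

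Among the enzymes that make and clear retinoic acid, ALDH1A1 was in 22Rv1 only, with 10 regions and 0 of them higher. CYP26B1, which degrades retinoic acid, and DHRS9, LRAT and ALDH1A2, which handle retinol and retinal, were in HPr1AR only. CYP26B1 held at least 62 m6A and 6 IgG reads (ratio at least 4.56), and LRAT 48 and 2 (5.78, 3.84 to 8.86). ALDH1A2 rested on 10 m6A reads in its leading region, and it did not reach the shared read rate. ALDH1A3, the retinal dehydrogenase that androgen induces in prostate cells, was in both. Its region chr15:101433841-101434840 held 50 m6A and 0 IgG reads in 22Rv1 (ratio at least 4.61) and 31 and 34 in HPr1AR (1.06, 0.31 to 1.80). Over the whole list of 25, 2 genes were in 22Rv1 only, 4 in HPr1AR only, 11 in both and 8 in neither. Of all genes, 6.47% were in 22Rv1 only, 12.7% in HPr1AR only and 80.8% in both.

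The m6A machinery was listed almost completely in both lines. Of 25 writers, erasers and readers, 24 were in both tables, beside 80.8% of all genes. IGF2BP1 was in 22Rv1 only through 1 region of 5 m6A reads and 1 IgG read that was not higher. METTL3, the catalytic writer, held 47 m6A and 19 IgG reads in 22Rv1 (1.85, 1.06 to 2.71) and at least 63 and 15 in HPr1AR (at least 3.26). METTL14, its partner, held 63 and 7 in 22Rv1 (3.72, 2.59 to 5.09) and at least 61 and 8 in HPr1AR (at least 4.12). The demethylase ALKBH5 held 88 and 27 in 22Rv1 (2.25, 1.62 to 2.93) and at least 63 and 17 in HPr1AR (at least 3.08). The HPr1AR intervals began at 2.43 for METTL3, 3.05 for METTL14 and 2.29 for ALKBH5. Each of them overlapped the 22Rv1 interval. The readers YTHDF1, YTHDF2 and YTHDF3 each had a higher region in each line. IGF2BP2, a reader that stabilises marked RNA, had 4 regions in 22Rv1 and 128 in HPr1AR, of which 3 and 12 were higher. Over the 91 overlapping pairs of these genes with known counts, the median difference of the ratio, 22Rv1 minus HPr1AR, was -0.23, the same as over all pairs (-0.23).

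Interferon-induced and antigen-presenting genes of 1 table only were those of HPr1AR. Of 27, 0 were listed in 22Rv1 only, 11 in HPr1AR only, 11 in both and 5 in neither, beside shares over all genes of 6.47% and 12.7% for the classes of 1 table. No region of the whole series named any of the 5 in neither. The count of 11 in HPr1AR became 10 above the shared read rate. IFIT1, IFIT2, IFIT3, MX2, OAS1, OAS2 and OASL, which restrict viral RNA, were among the 11, with NLRC5, the activator of class I genes, and HLA-B and HLA-C. LNCaP also listed IFIT1, IFIT2, IFIT3, OASL and NLRC5, and it did not list the rest of the 11. OAS1 held at least 60 m6A and 4 IgG reads in HPr1AR (ratio at least 5.10), and IFIT3 at least 68 and 51 (at least 1.61). HLA-C had no higher region and rested on 3 m6A reads. MX1, another antiviral GTPase, was in both, with 1 region in 22Rv1 and 24 in HPr1AR.

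Cytokine, serpin and S100 genes of 1 table only were mostly those of HPr1AR, again in families read from symbols after the values had been seen. Of 19 interleukins and their like-named receptors, 1 was in 22Rv1 only (IL3) and 12 in HPr1AR only, beside 6.47% and 12.7% of all genes. IL1A held at least 71 m6A and 58 IgG reads in HPr1AR (ratio at least 1.48) and IL1B at least 70 and 53 (at least 1.59). Of 9 chemokines, 0 were in 22Rv1 only and 8 in HPr1AR only, CXCL8 and CXCL2 among them. Of 22 serpins, protease inhibitors for the most part, 0 and 15 fell in these classes, and of 12 S100 calcium-binding proteins 0 and 8. S100A8 and S100A9 had no higher region, and S100A9 held 12 m6A and 31 IgG reads (-0.18, -1.28 to 0.82). Above the shared read rate the 22Rv1-only and HPr1AR-only counts were 3 and 8 for interleukins, 0 and 5 for chemokines, 1 and 11 for serpins and 0 and 7 for S100 proteins, beside 2169 and 1127 over all genes.

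Of 15 EGF family genes, 1 was in 22Rv1 only, 4 in HPr1AR only and 8 in both, beside 6.47%, 12.7% and 80.8% of all genes. Above the shared read rate 2 of them were in 22Rv1 only and 3 in HPr1AR only. The ligands AREG, EREG, NRG1 and NRG2 were in HPr1AR only and NRG3 in 22Rv1 only. TGFA, a ligand of EGFR, had 1 region in 22Rv1 and 77 in HPr1AR. ERBB4 ran the other way, with 9 regions in 22Rv1, all of them higher, and 1 in HPr1AR. Of 25 mesenchymal genes, 1 was in 22Rv1 only, 10 in HPr1AR only and 11 in both, beside 6.47%, 12.7% and 80.8% of all genes. Above the shared read rate 3 were in 22Rv1 only and 11 in HPr1AR only. COL5A1, a fibrillar collagen, made up the 22Rv1 group with 15 regions, all of them higher. CAV1, which forms caveolae, had 35 regions in HPr1AR, and TGFBI, an extracellular matrix protein induced by TGF-beta, had 17. VIM, the intermediate filament vimentin, was in both, with 1 region in 22Rv1 and 4 in HPr1AR.

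Of 39 HOX genes, which record position along the body axis, 4 were in 22Rv1 only, 12 in HPr1AR only and 21 in both, beside 6.47%, 12.7% and 80.8% of all genes. HOXB5, HOXB8, HOXC9 and HOXC12 made up the 22Rv1 group. HOXA2, HOXA9, HOXA10 and HOXA11 and the HOXD1, HOXD3, HOXD4, HOXD8, HOXD10, HOXD11 and HOXD12 genes were in the HPr1AR group. No gene of the HOXA and HOXD clusters was in 22Rv1 only, and no gene of the HOXB and HOXC clusters was in HPr1AR only. Neighbouring HOX genes share regions, so these are not independent counts, and above the shared read rate the classes held 5 and 10. HOXC12 held 62 m6A and 2 IgG reads in 22Rv1 (5.50, 3.59 to 8.58). HOXA11 held at least 68 and 3 in HPr1AR (at least 5.69).

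Of 36 Wnt genes, 5 were in 22Rv1 only, 6 in HPr1AR only, 19 in both and 6 in neither, beside 6.47%, 12.7% and 80.8% of all genes. Above the shared read rate 6 were in 22Rv1 only and 5 in HPr1AR only. AXIN2, a feedback target of Wnt signalling, and the ligand WNT5A were in 22Rv1 only, and the ligands WNT4, WNT7A and WNT10A in HPr1AR only. Of the Frizzled receptor genes, FZD1 to FZD8 were in both tables, FZD9 was in 22Rv1 only with 51 m6A reads against 1 IgG read, and FZD10 was in neither. Neuroendocrine markers gave 2, 2, 4 and 6 of 14 in the same order of classes, and 4, 1, 2 and 7 above the shared read rate. POU3F2, a neural transcription factor seen in neuroendocrine tumours, held 76 m6A and 0 IgG reads in 22Rv1 (ratio at least 5.21), while SYP and NCAM1 were in neither. Of 15 markers of blood, endothelial and muscle cells, 1 was in 22Rv1 only, CD14, CD68 and MYH11 were in both, and the other 11 were in neither table. Of 23 genes of p53 response and cell cycle, 22 were in both and CCND2 was in HPr1AR only. All 22 prostate cancer drivers were in both, and above the shared read rate 20 were, while ERG and ETV1 were in 22Rv1 only.

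Among genes of 1 line only, several of those with the most regions, such as ZNF385B and CCBE1, were covered mostly through their introns. In 22Rv1 the genes with the most regions naming no other gene were ZNF385B (92), SGCZ (55), KCNMB2 (44), HGF (40), FGF13 (40), FOLH1 (30), MIR3667HG (26), KHDRBS2 (22), ABCA3 (19), ANKRD30A (19), MYH14 (19), LRFN5 (18), COBL (17) and ADGRV1 (17). A gene on chromosome Y that the same rule selects is not described. ZNF385B, a zinc finger gene, had 93 regions, 85 of them in introns only and 12 higher, with a median of 3 m6A and 8 IgG reads. HGF, the ligand of the MET receptor, had 40 regions with 4 higher. KCNMB2, a potassium channel subunit, differed from these in that 27 of its 44 regions were higher, and its leading region held 61 m6A and 2 IgG reads (5.48, 3.56 to 8.56).

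In HPr1AR the corresponding genes included CCBE1 (161), LAMA3 (96), MYOF (93), CDH13 (93), HDAC9 (82), RUNX1 (71), TENM3 (67), TP63 (65), SLC2A9 (64), BTBD11 (63), ITGA2 (61), DLC1 (59), FBN2 (57) and UTRN (52). CCBE1, a secreted factor needed for lymphatic growth, had 152 of its 161 regions in introns only and 16 higher. LAMA3, the chain of the basement membrane laminin that basal cells bind, was covered in its exons too, with 48 regions in exons and 20 higher. RUNX1, a transcription factor, and TENM3, a cell adhesion protein, had 20 and 28 higher regions.

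Genes of both lines could differ as far. Over the 13237 shared genes, the median ratio of regions, 22Rv1 over HPr1AR, was 0.80, with more regions in 22Rv1 for 2318 genes and more in HPr1AR for 7558. EPHA3, an ephrin receptor kinase, had 170 regions in 22Rv1 and 1 in HPr1AR. Of the 170, 158 lay in introns only and 10 were higher, and the median read ratio was -0.89. ROBO1, a Slit receptor, had 164 in 22Rv1 and 7 in HPr1AR, AFF3, a component of elongation complexes, 136 and 6, and EPHA6 103 and 5. GUCY1A2 had 99 and 1, NLGN1 67 and 1, ZBTB16 51 and 1, EDA 35 and 1, CCDC144NL 21 and 1 and ADGRB1 20 and 1. EPHA3, ROBO1, EPHA6 and NLGN1 all lie on chromosome 3. In 22Rv1 EDA, a ligand of ectodermal development, had 24 higher regions of 35, and ADGRB1, an adhesion receptor, 14 of 20.

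At the other end, CDH4, the retinal cadherin, had 1 region in 22Rv1 and 290 in HPr1AR, of which 99 were higher. THSD4, a matrix protein, had 1 and 226, INPP4B, a lipid phosphatase known as a tumour suppressor, 1 and 120, and CDK6, a kinase of G1 phase, 2 and 93. TGFA had 1 and 77, PALM2AKAP2 1 and 60, ARHGEF28 1 and 58, NDRG1 1 and 49 and ABCA1 1 and 45, and a gene given only as the number 11217, whose regions PALM2AKAP2 shares, 1 and 59. HPr1AR regions at or above the shared read rate numbered 32 of 290 for CDH4, 21 of 226 for THSD4, 8 of 93 for CDK6 and 3 of 77 for TGFA, against 158 of 170 for EPHA3 in 22Rv1. Over all regions, 40651 of 139373 in HPr1AR and 64254 of 77311 in 22Rv1 reached that rate. In 9 of the 10 genes with more regions in HPr1AR named here a 22Rv1 region was higher. This is near the share over all 13237 shared genes, of which 12036 (90.9%) had a higher 22Rv1 region. TGFA held 36 m6A reads against 1 IgG read in 22Rv1 (ratio 5.72), and INPP4B 26 against 0 (at least 3.66). THSD4 was the exception, with 10 against 9 and no higher region in 22Rv1.

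**Figure D3:**
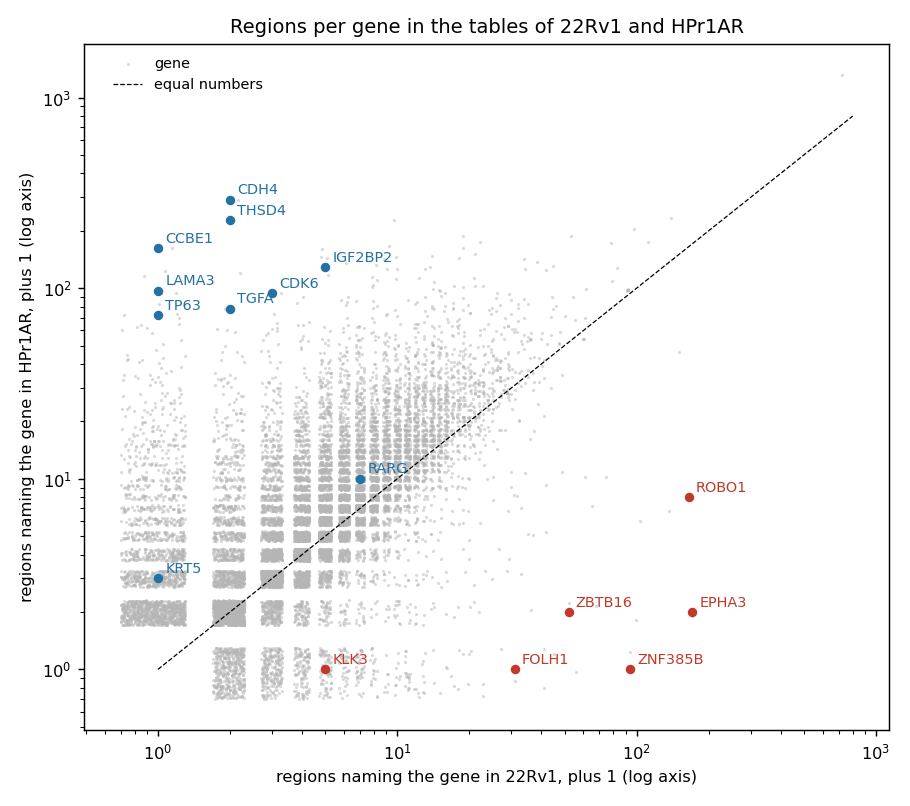
Number of regions naming each gene in 22Rv1 (horizontal log axis) and in HPr1AR (vertical log axis), each plus 1 and jittered, for the 16373 genes listed in either line; the dashed line marks equal numbers. EPHA3 (170 and 1) and ZBTB16 (51 and 1) lie below the line, and CDH4 (1 and 290) and TP63 (0 and 71) lie above it.

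MicroRNA genes were found in all 3 classes. Of 192 with a RefSeq hairpin entry, 24 (12.5%) were in 22Rv1 only, 63 (32.8%) in HPr1AR only and 105 in both, beside 6.47% and 12.7% over all genes. A region covers the precursor or host transcript, and the mature small RNA was not measured. The sequences of 7 mature forms are shown because their seeds (bases 2 to 8, in capitals) group the genes into families; they come from RefSeq on GRCh38.p14, are written 5′ to 3′ and were chosen after the values were seen.
miR-205-5p: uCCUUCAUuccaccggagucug
miR-21-5p: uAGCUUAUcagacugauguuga
miR-221-3p: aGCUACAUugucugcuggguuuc
miR-222-3p: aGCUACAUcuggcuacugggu
miR-429: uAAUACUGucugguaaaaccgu
miR-200c-3p: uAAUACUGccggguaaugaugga
miR-141-3p: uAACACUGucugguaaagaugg

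MIR205, a microRNA gene typical of basal prostate cells, was in HPr1AR only, in a region shared with its host gene MIR205HG at chr1:209602161-209606130. That region held at least 74 m6A and 113 IgG reads (ratio at least 0.58). MIR221 and MIR222, whose mature forms share the seed GCUACAU, lay in 1 HPr1AR region at chrX:45604751-45608350 with 22 m6A and 11 IgG reads (2.19, 1.08 to 3.38). MIR21 lay in an HPr1AR region of 70 m6A and 105 IgG reads (0.61, 0.15 to 1.06), for which more than 1 pair of counts met the deposited values. That region also covers exons of VMP1, which was listed in both lines.

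The miR-200 family, known to hold epithelial identity by restraining ZEB1 and ZEB2, is encoded in a pair of clusters, one on chromosome 1 and one on chromosome 12. MIR429, of the chromosome 1 cluster, was in HPr1AR only, with 46 m6A reads against 1 IgG read at chr1:1103381-1105680 (6.71, 4.16 to 12.05). MIR200C, of the chromosome 12 cluster, was in both, with 36 m6A and 12 IgG reads in 22Rv1 (2.13, 1.16 to 3.21) and 15 and 9 in HPr1AR (1.93, 0.64 to 3.30). miR-429 and miR-200c-3p share the seed AAUACUG, while miR-141-3p carries AACACUG. MIR141 counted as 22Rv1 only because the 22Rv1 region, chr12:7072391-7073600, reached it, while the overlapping HPr1AR region, chr12:7072381-7073070, named it with a promoter mark alone. For such a neighbour the class records the extent of a region rather than its presence.

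Regions of 22Rv1 were mostly found again in HPr1AR, and those of HPr1AR mostly were not found in 22Rv1. An overlap of 1 base or more existed for 77.6% of the 22Rv1 regions and 38.9% of the HPr1AR regions. Of the regions at or above the shared read rate, 80.9% in 22Rv1 and 80.9% in HPr1AR overlapped a listed region of the other table. With both tables limited to such regions, 55.9% in 22Rv1 and 77.0% in HPr1AR overlapped, which turns the order round. HPr1AR regions with no counterpart had a median of 9 reads in all, and 26.8% were higher. Those with one had 24 reads, and 62.2% were higher. In 22Rv1 the corresponding medians were 10 and 16 reads, and 54.5% and 56.8% were higher.

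Intron regions made up 48504 of the 85117 HPr1AR regions with no counterpart. Regions with an intron mark and no exon mark made up 19.7% of the 22Rv1 table and 40.0% of the HPr1AR table. Of these intron regions, 61.0% in 22Rv1 and 13.1% in HPr1AR overlapped a region of the other line, and above the shared read rate 63.7% in 22Rv1 and 55.2% in HPr1AR did. Above that rate the share of intron regions in the table was 17.4% in 22Rv1 and 11.8% in HPr1AR, so that the order turned round. Regions that touched an exon overlapped in 88.3% of cases in 22Rv1 and 62.2% in HPr1AR. Of the shared genes, 13095 (98.9%) had at least 1 overlapping pair of regions.

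Chromosomes differed in how many regions lacked a counterpart. In 22Rv1 the share without one was 38.0% on chromosome 3, 32.0% on chromosome 22 and 29.7% on chromosome 18, and only 9.36% on chromosome 20. Among the regions at or above the shared read rate these shares were 33.8%, 28.1%, 25.8% and 7.64%. Chromosome 3 held 2189 regions of 22Rv1 with no counterpart, of which 169 named EPHA3, 157 ROBO1, 98 EPHA6, 67 NLGN1 and 44 KCNMB2. It carried 7.46% of all 22Rv1 regions and 5.66% of all HPr1AR regions. In HPr1AR the share without a counterpart was 74.6% on chromosome 18, where CCBE1 and LAMA3 lie, and 70.5% on chromosome 20, where 289 such regions named CDH4. Above the shared read rate these became 31.5% and 25.6%.

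**Figure D4:**
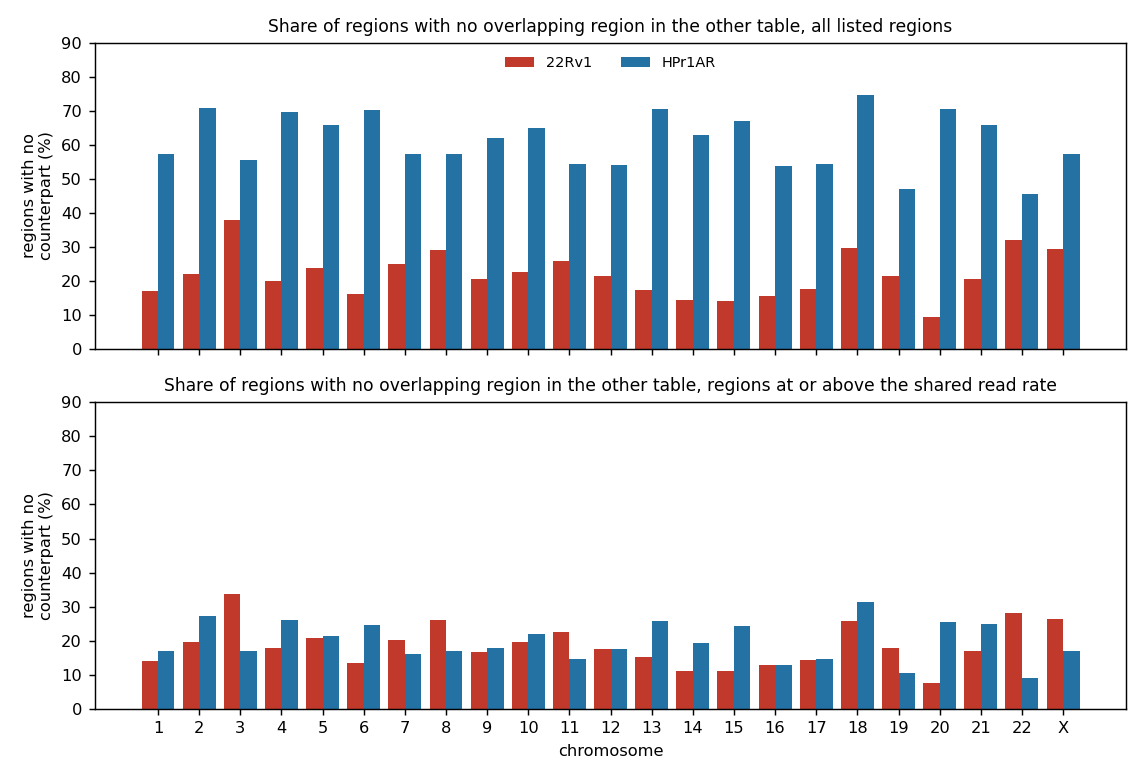
Percentage of regions of 22Rv1 and HPr1AR that have no overlapping region in the other table (vertical axis) for each chromosome, over all listed regions (top) and over regions at or above the shared read rate (bottom). Chromosome 3 stands highest for 22Rv1 in both panels, at 38.0% and 33.8%, and the HPr1AR bars are highest on chromosome 18, at 74.6% in the top panel and 31.5% in the bottom panel.

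Where both lines had a region at the same place, their read ratios were mostly indistinguishable. Of 51968 pairs in which each region was the other's best overlap, 53.2% were higher in both lines, 5.96% in 22Rv1 only, 9.33% in HPr1AR only and 31.5% in neither. The median ratio was 1.77 in 22Rv1 and 1.86 in HPr1AR over the 44162 pairs with known counts. The interval of 22Rv1 lay above that of HPr1AR in 202 pairs (0.389%) and below it in 457 (0.879%). Regions with a deposited p of 0, of which 22Rv1 had 135 and HPr1AR 8613, have no upper limit. A pair with such an HPr1AR region cannot count as 22Rv1 above, so the 2 directions were not counted on equal terms. With unambiguous counts alone 22Rv1 lay above in 180 pairs and HPr1AR in 289. When the median difference of -0.23 was removed, the counts of 202 and 457 became 300 and 317, so the size of the excess in HPr1AR also depends on the scaling. Representative windows can lie at different points of the 2 regions, and their positions are not given.

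Among the 202 pairs with the 22Rv1 interval above, RRM2, the small subunit of ribonucleotide reductase, held 51 m6A reads against 1 IgG read in 22Rv1 (6.22, 3.68 to 11.55) and 27 and 58 in HPr1AR (0.09, -0.63 to 0.77). LAMP1, a lysosomal membrane protein, held 46 and 0 in 22Rv1 (at least 4.49) and 47 and 54 in HPr1AR (0.99, 0.39 to 1.58). MIF, a cytokine and tautomerase, held 78 and 5 in 22Rv1 (4.51, 3.23 to 6.17) and 72 and 128 in HPr1AR (0.36, -0.08 to 0.79). Over these 3 windows IgG reads ranged between 0 and 5 in 22Rv1 and between 54 and 128 in HPr1AR. HDLBP, an RNA-binding protein, ALDH1A3, the actin-capping protein gene CAPG and a region shared by FASTK and SLC4A2 also had wide gaps.

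Pairs with the HPr1AR interval above were led by RPL18, a ribosomal protein, with 32 m6A and 59 IgG reads in 22Rv1 (-0.34, -1.004 to 0.31) and at least 61 and 5 in HPr1AR (at least 4.80). The HPr1AR region also named FAM83E, so the genes cannot be told apart there. ZBTB10, a zinc finger repressor, held 46 and 46 in 22Rv1 (0.55, -0.07 to 1.17), a count with more than 1 solution, and at least 60 and 2 in HPr1AR (at least 6.097). It was apart in the same direction in 3 of its 4 pairs. G3BP1, a core protein of stress granules, held 7 and 22 in 22Rv1 (-1.10, -2.57 to 0.17) and 47 and 5 in HPr1AR (4.42, 3.10 to 6.11). SDF4, SGSM2, the overlapping genes DDT and DDTL, NFS1 with ROMO1, and the histone genes H2AC8 with H2BC8 followed.

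**Figure D5:**
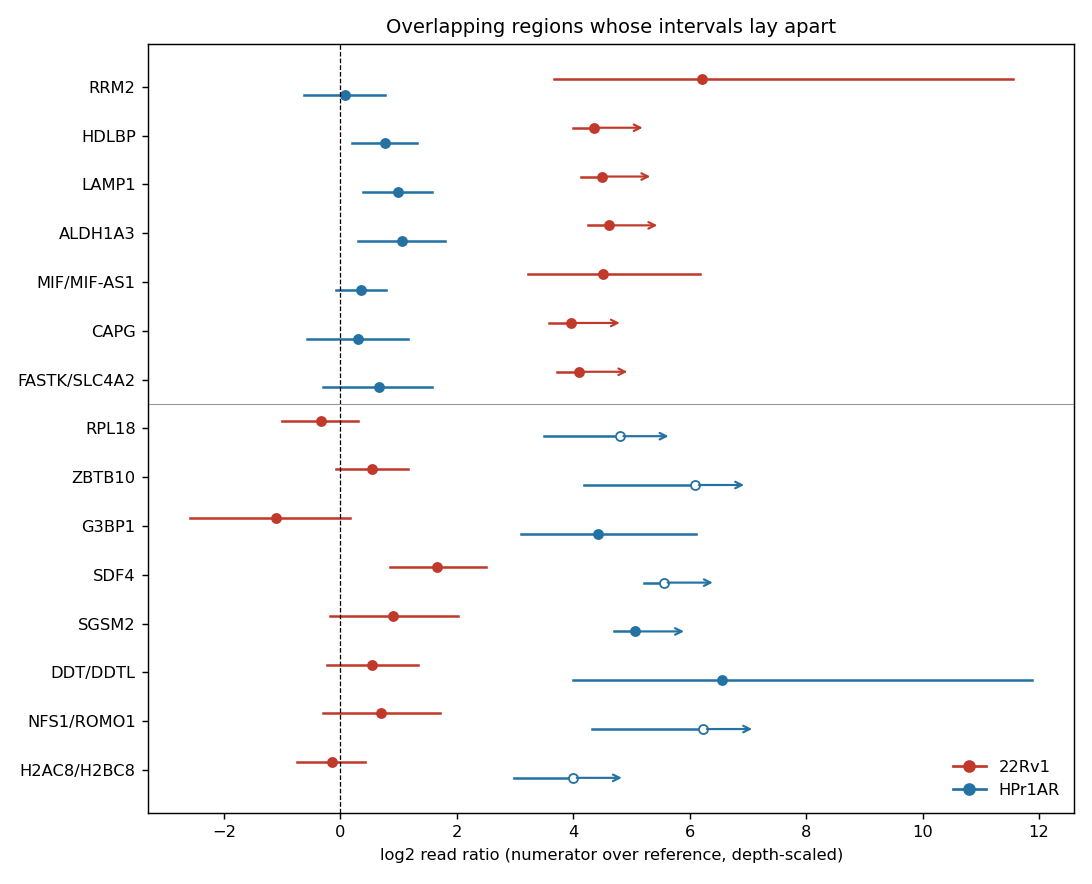
Log2 read ratio (horizontal axis) of 22Rv1 and HPr1AR at overlapping regions whose 95% exact intervals lay apart, 7 with 22Rv1 above (upper block) and 8 with HPr1AR above (lower block). Arrows mark lower bounds and open circles regions with a deposited p of 0; at RRM2 the ratio was 6.22 in 22Rv1 and 0.09 in HPr1AR, and at G3BP1 -1.10 in 22Rv1 and 4.42 in HPr1AR.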

How the data were processed

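The authors deposited 1 table per line, with p-values, adjusted p-values and a log2 fold per region, numbers of windows up and down, and gene names with exon, intron or promoter marks, per the file headers. The sources used here do not name the aligner, the window counter or the test, and the submitters' processing notes name the build hg38. There were 0 columns of per-sample values left unused. Samples were grouped by line and antibody from their labels.

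In the deposited log2 fold the log of the IgG reads, each with a small prior, proved to be subtracted 2 times from the log of the m6A reads, up to an additive constant. Constants were fitted on 669 regions of 22Rv1 and 3638 of HPr1AR (largest residual 1.09e-04 and 6.08e-05). Whole reads were then found for 99.8% and 100% of regions with p above 0, and for 1.61% and 1.09% after a random shift of the folds. More than 1 pair of counts met the values in 522 and 886 regions. In 163 regions of 22Rv1 none did, and these have no ratio but count as listed. For the 135 and 8613 regions with p of 0 the fewest reads that reach it were taken. Depths rest on the assumption that priors scale with depth. The listing rule is not given: 6 HPr1AR regions had 0 reads in both pull-downs.

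On simulated data of 6000 regions per line, reads were exact in 99.9% and 100%. Calls were made for 39.5% and 37.5% of regions given a log2 ratio of 2, and for 0.204% and 0.0741% of those given none. A region not called is therefore not shown to be unchanged.

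The leading region of a gene is the one with the most m6A reads among those with settled counts or bounds. Named were, for each line, the 15 genes of 1 table only with the most regions naming no other gene, 10 shared genes at each end of the ratio of regions (at least 10 regions in a table), 8 pairs per direction with the widest gap, up to 4 members per list and class, and RARG; further list members and families were added after their values were seen. Genes on chromosome Y were not named, and some genes that these rules select are not reported here. The members and gene lists were chosen with earlier results of these data known. Names matched RefSeq symbols for 15992 genes, and 62 are given as numbers. Computations used Python 3.11.15, numpy, pandas and scipy.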

Additional observations from a re-analysis of the deposited data

How the results depend on the processing

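Of 97 alternative values, 68 stayed within the limits set and 29 moved. The order of the gene classes and of the overlapping shares turned round at the shared read rate. At or above that rate 2169 genes were in 22Rv1 only and 1127 in HPr1AR only, while 1005 HPr1AR-only genes reached that rate and were absent from the 22Rv1 table altogether. The cause was not tested. The other gene filters kept both counts within 1.5 times.

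The overlapping share of regions was 71.1% in 22Rv1 and 51.3% in HPr1AR for higher regions, 66.5% and 58.4% at equal table length, 55.9% and 77.0% when both tables were limited to the shared read rate, 78.2% and 39.8% with at least 2 windows, and 41.6% and 23.1% with a reciprocal overlap of 50%. It was 40.0% in HPr1AR at a deposited adjusted p of 0.05 or 0.001. The share of higher regions was 38.5% in 22Rv1 and 27.1% in HPr1AR at an adjusted p of 0.001, and 24.1% and 9.08% among regions of 1 window.

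Pairs apart with 22Rv1 above and with HPr1AR above numbered 124 and 246 of 32049 at a reciprocal overlap of 50%, and 0 and 0 among the 8 pairs of 1 window each. With unambiguous counts alone 22Rv1 lay above in 180 and HPr1AR in 289. Centring gave 300 and 317. Centring, unambiguous counts, leaving out chromosome Y and the comparison with any listed region were chosen after seeing the data. Of 42 alternatives for gene lists 5 moved, all at the shared read rate.

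No paired analysis was possible because the tables carry no value per sample, and no sample was left out for the same reason. Few reads per window (9 most often in each table) limit what can be detected.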

Other observations

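Of 499 zinc finger genes with ZNF symbols listed in either line, 51 (10.2%) were in 22Rv1 only and 18 (3.61%) in HPr1AR only, beside 6.47% and 12.7% over all genes. Above the shared read rate the counts were 75 and 15, beside 2169 and 1127 over all genes. The family was chosen after its values were seen, and its members share sequence. Of 13 Ephrin receptors, 3 were in 22Rv1 only (EPHA7, EPHA8 and EPHA10) and 1 in HPr1AR only (EPHB6). Of 18 claudins, which seal tight junctions, 0 were in 22Rv1 only and 7 in HPr1AR only, and above the shared read rate these counts were 4 and 2.

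Of 15 abundant transcripts, 14 were listed in both lines, beside 80.8% of all genes, and 1, which no region of the series named, in neither. Over 29 pairs of such genes with known counts the median log2 read ratio was 0.03 in 22Rv1 and 0.19 in HPr1AR, against 1.77 and 1.86 over all pairs. Single leading regions stood higher, such as that of NPM1, a nucleolar chaperone, with 2.87 in 22Rv1 and 2.23 in HPr1AR. ACTB, GAPDH and EEF1A1 were among the 8 of 14 that lacked a higher region in at least 1 line. In 22Rv1 alone 8 genes had a higher region, beside 90.9% of all shared genes. The leading HPr1AR regions of ACTB and some others were tested on the fewest possible reads, so whether these were higher is not known. Over 162 pairs of ribosomal protein genes the medians were 0.30 and 0.61.

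In 7 pairs the 22Rv1 region was lower and the HPr1AR region higher by the read ratio, and in 0 the reverse. CTTN, the actin-binding protein cortactin, held 0 m6A and 9 IgG reads in 22Rv1, and 14 and 5 in HPr1AR. PRKDC, the DNA-dependent protein kinase, held 9 and 34 in 22Rv1, and 25 and 12 in HPr1AR. SLBP, which binds histone messenger RNA, held 2 and 14 in 22Rv1, and 11 and 6 in HPr1AR. Of the genes listed in both lines, 142 had no overlapping region. KIF1A, a neuronal motor protein, had 17 regions in 22Rv1 and 1 in HPr1AR, and COL8A1, a short-chain collagen, 1 in 22Rv1 and 12 in HPr1AR.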
